A study of Mus musculus with 62 samples.

Results

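The 10 genes described here encode proteins that sit at the Z-disc or bind its partners and respond to mechanical load: Ky, Flnc, Igfn1, Xirp1, Xirp2, Hspb8, Ankrd1, Ankrd2, Csrp3 and Nrap. They were chosen by name, as 10 of the 47643 genes in a table of diaphragm RNA levels, around Ky, which was picked because it was among the largest falls in cachectic muscle at 8 weeks. On the log2 scale Ky changed by -2.68 between cachectic and control mice at 8 weeks, rank 3 among 13578 genes from the largest fall, between Mfap4 at -2.78 and Nrep at -2.64. That comparison chose the gene, so every value at 8 weeks is given below as a description, with no test. Differences were tested at 2, 4 and 6 weeks, between other mice. The spread of each gene in those tests was estimated from all 62 mice, those at 8 weeks included.

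RNA was sequenced from the diaphragms of 62 female mice, with 1 library for each mouse. The labels give an age of 2 months at every time point, which the design text gives as the age when injected, so mice at later weeks were older. Mice carried a cachexia-inducing ("cachectic") patient-derived melanoma xenograft, a melanoma xenograft that does not induce cachexia ("non-cachectic"), or had a mock injection ("control"). They were examined 2, 4, 6 and 8 weeks after injection, with 5 mice in each of 11 conditions and 7 cachectic mice at 8 weeks. The design text gives the mice as NCI Ath/nude, hosts that lack a thymus, whereas the sample labels give the strain as C57BL6/J. The labels name no other allele or agent. Each kind of tumor came from 1 xenograft, so a difference between cachectic and non-cachectic mice compares those 2 tumors. Each value is in TPM, the usual transcript abundance unit, which is corrected for transcript length and library total. Raw counts were not used here and the depth of each library is unknown.

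The Z-disc anchors the thin filaments of neighbouring sarcomeres and carries the force they produce, so its proteins are stretched with each contraction. Filamin C crosslinks actin there, unfolds under load and is sent for degradation by chaperone-assisted selective autophagy, in which Hspb8 works with Bag3, while Xin proteins gather where myofibrils are damaged. Another set of load-responsive proteins, the muscle ankyrin repeat proteins, bind titin and also enter the nucleus, and their transcripts are known to rise with stretch, denervation or injury.

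Of the 10 genes, 9 were at 1 TPM or more in enough mice to be tested. Igfn1, an immunoglobulin and fibronectin domain protein that binds Ky, was the exception. It lay between 0 and 0.127 TPM in the 62 mice and was listed at 0 in 3 of them, so nothing can be said of its change in this tissue. The other 9 were above 1 TPM in all 62 mice, in every group, so the filter on low values did not favour those that were high in 1 group. Over the 20 control mice Nrap had the highest level, 671 ± 135 TPM (SD), followed by Xirp2 at 380 ± 50.5 TPM. Flnc at 247 ± 81.3 TPM and Hspb8 at 245 ± 30.4 TPM did not differ beyond their spread. Ankrd2 at 161 ± 97.3 TPM, Csrp3 at 124 ± 71.0 TPM and Xirp1 at 97.1 ± 76.0 TPM overlapped as well, below them. Ky stood at 48.8 ± 9.62 TPM and Ankrd1 at 9.05 ± 8.56 TPM. Relative to the mean, Ankrd1, Xirp1, Ankrd2 and Csrp3 varied most between control mice, with coefficients of variation from 57.4% to 94.6%, while Ky, Nrap, Xirp2 and Hspb8 varied by 12.4% to 20.2%.

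Among these mice, 4 libraries stood apart from the other 58: replicates 3 and 4 of cachectic mice at 2 weeks, replicate 5 of non-cachectic mice at 2 weeks and replicate 3 of cachectic mice at 8 weeks. They held 15069 to 16389 genes above 0 against 17909 to 19057 in the others, and 54.4% to 61.5% of their TPM came from mitochondrially encoded genes against 32.5% to 50.1%. Long genes were low in them. In cachectic replicate 3 at 8 weeks the median log2 difference from the other mice of its condition was 0.05 for genes of up to 1000 exon bases and -1.53 for genes of more than 8000. Among the members in that library, Xirp1 was at 0.0390 of the median of the other 6 mice, Flnc at 0.0705 and Nrap at 0.0724, whereas the shorter Csrp3 was at 1.84 and Ankrd1 at 1.42. The shortest members did not follow exon length there, with Ankrd2 at 0.144 and Hspb8 at 0.249. No condition at 4 or 6 weeks holds any of the 4 libraries. In the fit they still enter the shared estimate of spread. Of all genes tested, 31.2% were called between cachectic and control mice at 6 weeks when they were left out, against 6.79% with them.

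**Figure D1:**
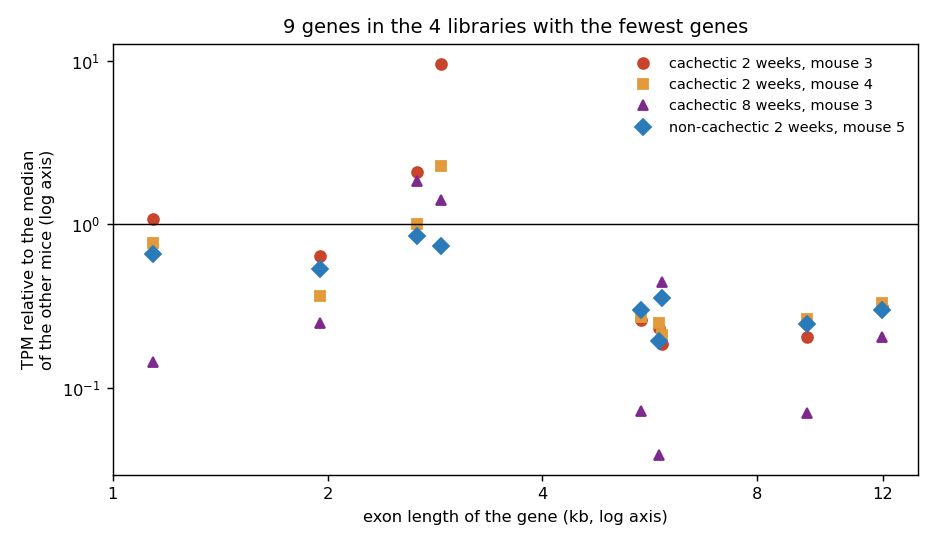
Level of the 9 tested genes in each of the 4 libraries with the fewest genes, as TPM divided by the median of the other mice of that condition (log axis; for cachectic mice at 2 weeks, of the 3 mice outside the 4 libraries), against exon length in kilobases (log axis). Genes longer than 5 kb lie below the line at 1 in every one of the 4 libraries, and Xirp1 in the cachectic mouse at 8 weeks is lowest, at 0.0390.

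Ky and Ankrd2 were the members called at 6 weeks, in opposite directions: Ankrd2 against both other groups, and Ky against non-cachectic mice. Ky encodes a transglutaminase-like protein of the Z-disc that binds Flnc and Igfn1, and its loss causes kyphoscoliosis in mice (GRCm38, chr9:102505750-102546239, plus strand). Ankrd2 is a muscle ankyrin repeat protein that binds the N2A region of titin and is typical of slow fibers (chr19:42036000-42045110, plus strand). At 6 weeks Ky was lower in all 5 cachectic mice than in any of the other 10 mice, and Ankrd2 was higher in all 5.

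At 6 weeks the 5 cachectic mice had Ky levels of 9.01, 21.1, 21.2, 22.7 and 29.3 TPM. The 5 control mice had 42.9, 42.9, 53.8, 58.6 and 60.6 TPM, and the 5 non-cachectic mice had 49.3, 55.5, 62.7, 62.7 and 71.7 TPM. The cachectic mice did not overlap either group, and their mean of 20.7 ± 7.33 TPM compares with 51.8 ± 8.46 TPM in control and 60.4 ± 8.45 TPM in non-cachectic mice (SD, n = 5). The log2 fold change against non-cachectic mice was -1.58 ± 0.49 (SE), with an adjusted p of 0.0402 by limma. Against control mice it was -1.36 ± 0.49, with an adjusted p of 0.0815, which missed the threshold of 0.05. The 95% interval of that difference ran from -2.33 to -0.38. An exact two-sided permutation test of Ky alone gave p = 0.00794 in each comparison, unadjusted for the number of genes, which is the smallest p that 5 mice against 5 can give. Groups that do not overlap always give this p, so it restates the lack of overlap. The groups did not overlap for 18.9% of all genes against control and 16.9% against non-cachectic mice.

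These Ky calls sat close to the threshold. Against non-cachectic mice the call was lost when any 1 of 8 of the 10 mice was left out, all but cachectic replicates 3 and 5, and the adjusted p then ran from 0.0601 to 0.180. The highest value belonged to the fit without cachectic replicate 1, the mouse with 9.01 TPM, where the fold change was -1.32. Against control mice Ky passed without the 4 libraries that stood apart (adjusted p = 0.0156) and in other fits given at the end, with adjusted p between 0.00119 and 0.122 over the alternatives.

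At 6 weeks Ankrd2 stood at 439, 507, 572, 581 and 720 TPM in the cachectic mice. It was 95.7, 116, 136, 221 and 361 TPM in the control mice and 70.9, 84.7, 237, 276 and 278 TPM in the non-cachectic mice. The lowest cachectic mouse was above the highest of the other 10. The log2 fold change was 1.75 ± 0.47 against control (limma, adjusted p = 0.0126) and 1.78 ± 0.47 against non-cachectic mice (adjusted p = 0.0129), from means of 564 ± 104 TPM in cachectic, 186 ± 109 TPM in control and 189 ± 103 TPM in non-cachectic mice (SD, n = 5). Without cachectic replicate 1, the mouse with the highest Ankrd2 and the lowest Ky, the adjusted p was 0.0506 and 0.0512. Against non-cachectic mice the call was also lost without non-cachectic replicate 1 (0.0695) or replicate 4 (0.0514), the 2 mice with the lowest Ankrd2 of that group. Control and non-cachectic mice did not differ in Ankrd2 at 6 weeks beyond their spread (-0.03 ± 0.47, 95% interval -0.96 to 0.91).

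**Figure D2:**
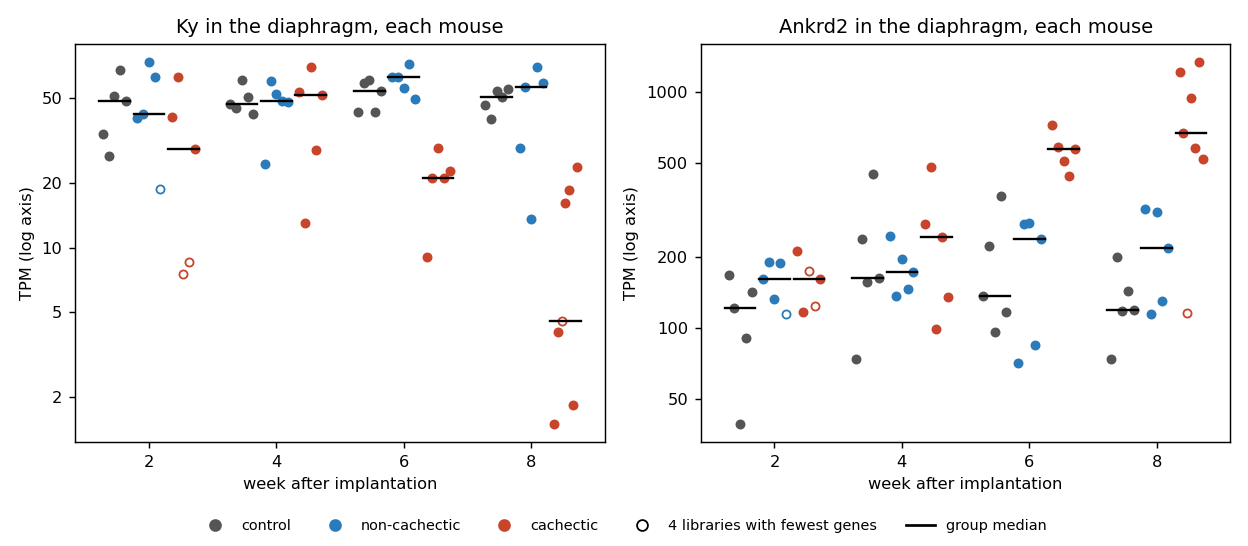
Level of Ky (left) and Ankrd2 (right) in each mouse, in TPM on a log axis, by weeks after implantation and group; points are mice, black lines group medians and open points the 4 libraries with the fewest genes. At 6 weeks the cachectic mice lie apart from both other groups, below 30 TPM for Ky and above 430 TPM for Ankrd2.

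The bases before the start of Ankrd2 are shown because it was the member called in both comparisons, beside those of Csrp3, the member with the next lowest fold change after Ky against non-cachectic mice. RefSeq sequences on GRCm38.p6 were given for windows of 250 bases before the start of 9 of the 10 genes, 11 windows in all, with none for Xirp1. The windows of Ky and Ankrd1 lie within exons of the GENCODE annotation, which places their starts upstream, and are not printed. Matches to the E-box CANNTG, the motif bound by myogenic bHLH factors, are in capitals, read 5′ to 3′ on the strand of the gene.
Ankrd2 (chr19:42035777-42035999, plus strand): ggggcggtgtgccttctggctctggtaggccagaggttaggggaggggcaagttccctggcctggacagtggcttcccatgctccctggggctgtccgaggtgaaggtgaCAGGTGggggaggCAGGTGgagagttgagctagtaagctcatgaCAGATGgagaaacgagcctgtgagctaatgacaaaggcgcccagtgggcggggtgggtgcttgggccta
Csrp3 (chr7:48848052-48848301, minus strand): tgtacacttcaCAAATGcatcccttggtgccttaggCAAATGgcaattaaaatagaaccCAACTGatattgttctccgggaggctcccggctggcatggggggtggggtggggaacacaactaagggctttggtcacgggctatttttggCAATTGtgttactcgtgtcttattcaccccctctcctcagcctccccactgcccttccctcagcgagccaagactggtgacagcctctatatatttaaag
The Ankrd2 window held 3 matches and this Csrp3 window 4. An E-box was found in 9 of the 11 windows of the members and in 66.2% of all 32851 promoter windows, so its presence sets no member apart. The MCAT motif CATTCC (both strands) was found in the Ankrd1 window, which is exonic in GENCODE, and in 1 of the 2 Flnc windows, against 12.6% of all windows, and a MEF2 site in Xirp2, against 2.92%. A match to these letters is a description of the sequence, not evidence of binding.

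Of the 9 members tested at 6 weeks, 1 was called higher and 0 lower in cachectic than in control mice, where 6.79% of all genes were called. Against non-cachectic mice 1 was called higher and 1 lower, where 5.85% of all genes were called. Groups did not overlap for 2 members against control, beside 18.9% of all genes, and for 3 members against non-cachectic mice, beside 16.9%. Counts of 1 and 2 among 9 genes chosen by name are given as a description only. The median log2 fold change of the 9 members was 0.03 for the control and -0.03 for the non-cachectic comparison, where the medians over all genes were 0.17 and 0.14. Non-cachectic and control mice differed in 0 of the 9 members at 6 weeks, as in 0 of all genes by limma, with 0 members and 100 of all genes at an unadjusted p under 0.05.

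At 6 weeks mitochondrially encoded genes took 34.3% to 44.9% of the TPM in cachectic mice, 44.9% to 47.9% in control mice and 43.2% to 47.9% in non-cachectic mice. Scaling without those genes brought the median of all genes against control from 0.17 to 0.03. On that scale Ky changed by -1.54 (adjusted p = 0.0450) and Ankrd2 by 1.59 (0.0184) against control. Both genes kept their direction under all 3 other scalings.

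**Figure D3:**
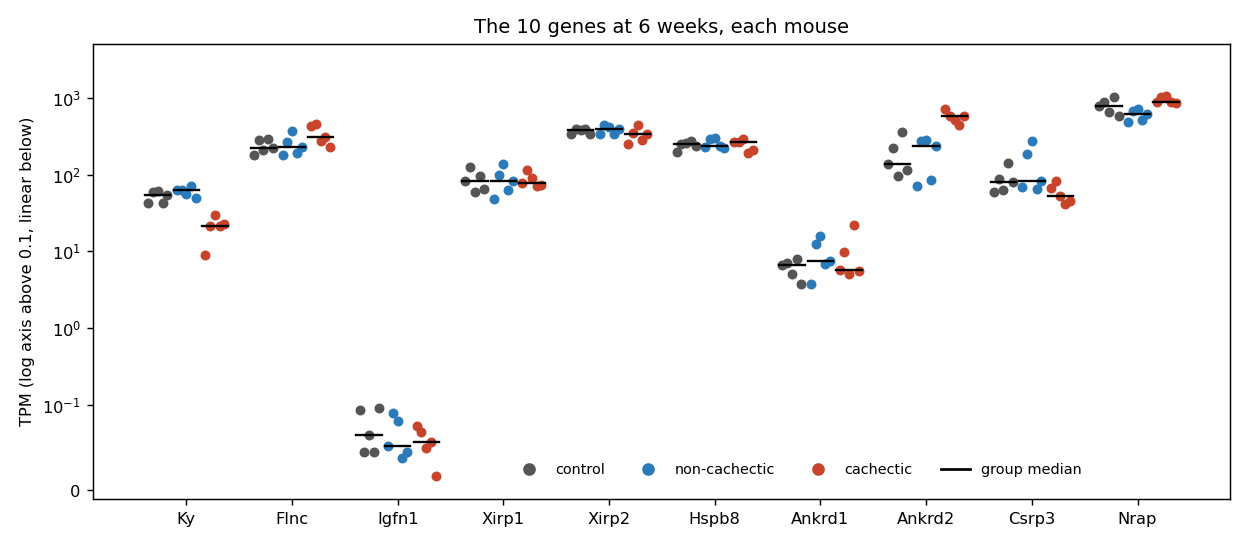
Level of the 10 genes at 6 weeks in each of the 15 mice, in TPM (log axis above 0.1, linear below), by group; points are mice and black lines group medians. Ky is lower and Ankrd2 higher in all 5 cachectic mice, Nrap is above the non-cachectic mice only, and Igfn1 stays below 0.1 TPM.

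Flnc, the crosslinker that Ky binds (chr6:29433256-29461883, plus strand), showed no change past the test at 6 weeks. Its levels were 231, 275, 311, 426 and 455 TPM in cachectic mice, 178, 207, 224, 281 and 286 TPM in control mice, and 179, 192, 227, 268 and 373 TPM in non-cachectic mice. In 3 of the 5 cachectic mice Flnc was above every control mouse, and the other 2 lay inside the control range. Flnc differed by a log2 value of 0.50 ± 0.45 against control (limma, adjusted p = 0.572) and 0.46 ± 0.45 against non-cachectic mice (0.656).

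Xirp1 and Xirp2 encode Xin actin-binding repeat proteins, which bind filamin C and gather at sites of myofibril damage. At 6 weeks Xirp1 was 70.1, 73.4, 78.4, 89.5 and 114 TPM in cachectic mice and 59.0, 64.2, 81.8, 94.8 and 124 TPM in control mice, so the groups overlapped throughout. Its log2 fold change against control was 0.03 ± 0.54, and the wide 95% interval, -1.04 to 1.11, spans large changes in either direction. Xirp2 was 248, 280, 337, 351 and 437 TPM in cachectic mice and 334, 338, 379, 390 and 394 TPM in control mice, a change of -0.17 ± 0.30 (limma, adjusted p = 0.788).

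Hspb8, the small heat shock protein of the filamin repair complex, differed little between groups at 6 weeks. It measured 190, 211, 267, 269 and 286 TPM in cachectic and 195, 237, 248, 254 and 276 TPM in control mice. The difference was 0.01 ± 0.24 (95% interval -0.47 to 0.48). The near-zero changes of Xirp1 and Hspb8 against control turned slightly negative under every other scaling, so neither has a direction.

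Ankrd1, the cardiac ankyrin repeat protein and a close relative of Ankrd2, was not called at 6 weeks. At 6 weeks it was 5.02, 5.57, 5.67, 9.66 and 21.9 TPM in cachectic mice, 3.73, 5.10, 6.73, 7.14 and 7.94 TPM in control mice, and 3.71, 6.92, 7.58, 12.6 and 15.6 TPM in non-cachectic mice. Only the cachectic mouse with 21.9 TPM lay above all the other 14. On the log2 scale the difference was 0.40 ± 0.42 against control (limma, adjusted p = 0.649) and -0.03 ± 0.42 against non-cachectic mice (0.976). Whether Ankrd1 and Ankrd2 differed in their response was not tested.

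Csrp3 encodes muscle LIM protein, a Z-disc protein that binds actinin and telethonin and serves as a cofactor of myogenic factors. It was 41.5, 44.7, 51.7, 67.1 and 82.9 TPM in cachectic mice at 6 weeks, 59.6, 63.0, 79.6, 88.4 and 140 TPM in control mice, and 64.8, 68.5, 81.1, 185 and 277 TPM in non-cachectic mice. In 3 of the 5 cachectic mice it was below every mouse of both other groups. On the log2 scale Csrp3 differed by -1.01 ± 0.41 against non-cachectic mice (limma, adjusted p = 0.150) and -0.55 ± 0.41 against control (0.486), and neither passed. The non-cachectic mean of 135 ± 93.3 TPM rests on the mice with 185 and 277 TPM.

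Nrap, a nebulin-related actin-binding protein of myofibril assembly and the myotendinous junction, was 864, 873, 878, 1027 and 1063 TPM in cachectic mice at 6 weeks. It was 482, 514, 621, 665 and 702 TPM in non-cachectic mice and 581, 648, 775, 881 and 1035 TPM in control mice. Every cachectic mouse was above every non-cachectic mouse, but the control mice covered most of both ranges. The log2 fold change against non-cachectic mice was 0.66 ± 0.40 (limma, adjusted p = 0.404). Without the 4 libraries at 2 and 8 weeks the standard error was 0.13 and the adjusted p 0.000270, in a fit that called 27.2% of all genes. Against control the change was 0.29 ± 0.40 (0.731), and 0.0956 without the 4 libraries.

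At 4 weeks 0 of the 9 members were called in any of the 3 comparisons by limma, as were 0.0221% of all genes between cachectic and control mice, 0.0295% between cachectic and non-cachectic mice and 0 between non-cachectic and control mice. At an unadjusted p under 0.05 there were 2 members between cachectic and control mice, Csrp3 and Ankrd1, beside 728 of all 13578 genes. Between cachectic and non-cachectic mice there were 0, beside 697 of all genes. Neither of the 2 genes that were called at 6 weeks stood apart at 4 weeks. Ky was 13.0, 28.5, 51.8, 53.1 and 70.0 TPM in the cachectic mice, 42.0, 44.7, 46.9, 50.5 and 60.3 TPM in the control mice and 24.4, 47.7, 48.4, 52.0 and 60.0 TPM in the non-cachectic mice. Cachectic mice thus spanned the widest range of Ky, with 2 of 5 below every control mouse and 1 above. The difference from control was -0.36 ± 0.49.

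Ankrd2 at 4 weeks was 98.5, 135, 241, 273 and 481 TPM in cachectic mice and 73.5, 156, 162, 237 and 446 TPM in control mice, a difference of 0.22 ± 0.47. The cachectic mouse with the lowest Ky, replicate 2, was the mouse with the highest Ankrd2. Csrp3 fell short of the test with -1.12 ± 0.41 against control (limma, adjusted p = 0.599). It was 45.1 to 82.8 TPM in cachectic mice and 55.2, 104, 117, 268 and 345 TPM in control mice. The same 2 control mice, with 268 and 345 TPM, also had the highest Ankrd1 of all mice at 4 weeks, 37.7 and 28.4 TPM, beside 4.35 to 7.00 TPM in the other 3, and 1 of them had 405 TPM of Xirp1. Xirp2 was 231 to 359 TPM in cachectic mice and 352 to 482 TPM in control mice, with 1 cachectic mouse inside the control range, and its difference of -0.50 ± 0.30 did not pass (adjusted p = 1.00).

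**Figure D4:**
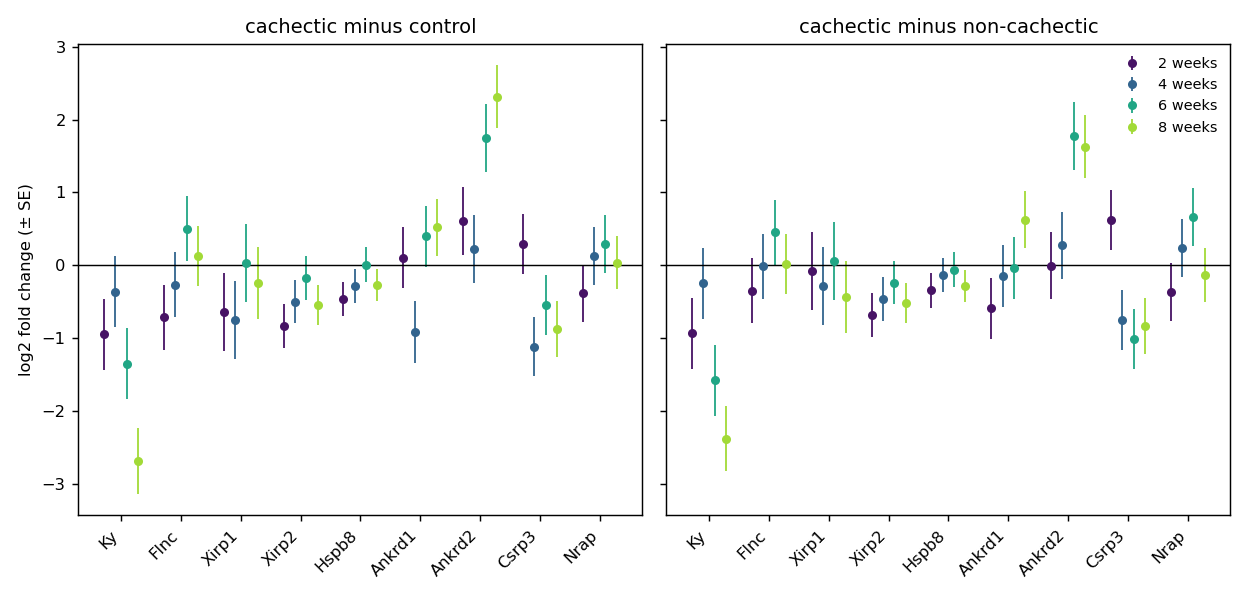
Log2 fold change (± SE) of the 9 tested genes in cachectic mice against control (left) and non-cachectic mice (right) at 2, 4, 6 and 8 weeks. Against control, at 2, 4, 6 and 8 weeks, Ky is at -0.95, -0.36, -1.36 and -2.68 and Ankrd2 at 0.61, 0.22, 1.75 and 2.32. The 8-week values were not tested, and a difference between the 4-week and 6-week effects was not shown.

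At 2 weeks Xirp2 was called lower in cachectic than in control mice, and no other member was called, in a comparison where 29.3% of all genes were called. Xirp2 was 106, 112, 221, 339 and 357 TPM in the cachectic mice and 274, 340, 344, 418 and 430 TPM in the control mice. The 2 lowest values are those of the 2 cachectic libraries that stood apart. The log2 fold change was -0.83 ± 0.30 (limma, adjusted p = 0.0357), and without the 4 libraries it was -0.25 ± 0.17 (0.515). Ky in those 2 libraries was 7.57 and 8.56 TPM, against 28.9, 40.5 and 62.3 TPM in the other 3 cachectic mice and 26.8 to 67.7 TPM in control mice. Its difference from control was -0.95 ± 0.49 with all 5 mice (adjusted p = 0.106) and -0.05 ± 0.50 without the 4 libraries. Against non-cachectic mice, and between non-cachectic and control mice, 0 members were called by limma at 2 weeks, beside 0 and 4.43% of all genes. With an unadjusted p under 0.05 there were 1 and 0 members, beside 1709 and 1688 of all 13578 genes.

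Within the cachectic mice, the step from 4 to 6 weeks was largest in Ankrd2 and Ky but did not pass the test. Ankrd2 differed by 1.39 ± 0.47 (limma, adjusted p = 0.344) and Ky by -0.91 ± 0.49 (adjusted p = 0.741). By limma 0 of 9 members were called, beside 0.0957% of all genes. An unadjusted p under 0.05 was found for 1 member, beside 955 of all 13578 genes. In control and in non-cachectic mice 0 members and 0 of all genes were called between 4 and 6 weeks. There 1 and 0 members had an unadjusted p under 0.05, beside 56 and 52 of all genes.

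The difference between the 6-week and the 4-week effect was tested directly. For Ankrd2 it was 1.53 ± 0.66 relative to control and 1.50 ± 0.66 relative to non-cachectic mice (limma, adjusted p = 1.00 in both). For Ky it was -0.99 ± 0.69 and -1.33 ± 0.69 (adjusted p = 1.00 in both). No member and 0 of all genes were called in either test. An unadjusted p under 0.05 was found for 2 members and 1 member, beside 506 and 249 of all 13578 genes. A later onset of the changes at 6 than at 4 weeks was therefore not shown for any member.

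At 8 weeks, the comparison that chose Ky, its level in the 7 cachectic mice ran from 1.50 TPM, with a median of 4.52 TPM, to 23.7 TPM. Control mice had 39.7, 46.1, 50.6, 54.0 and 55.0 TPM and non-cachectic mice 13.6, 29.0, 56.4, 58.4 and 70.0 TPM. All 7 cachectic mice were below every control mouse, which held for 519 genes in all, Ky included (3.82%), and 4 were below every non-cachectic mouse. The cachectic mice fell into levels of 1.50 to 4.52 TPM in 4 mice and 16.1 to 23.7 TPM in 3. Of the 4, 1 is the library that stood apart, and without it the log2 fold change was -2.60 in place of -2.68.

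Ankrd2 at 8 weeks ran from 116 TPM in the library that stood apart to 1333 TPM, with a median of 667 TPM, in cachectic mice. The other 6 cachectic mice, at 519 TPM or more, were above all control mice, at 73.3, 117, 119, 142 and 198 TPM, and all non-cachectic mice, at 114, 130, 218, 308 and 319 TPM. The log2 fold change against control was 2.32 ± 0.43, and 2.72 ± 0.40 without that library. The 2 mice with the lowest Ky, at 1.50 and 1.85 TPM, had the highest Ankrd2, at 1206 and 1333 TPM.

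For the other members at 8 weeks the library that stood apart set much of the spread. Against control, the log2 differences of Flnc, Nrap and Xirp1 were 0.12, 0.04 and -0.24 with it, and 0.66, 0.57 and 0.38 without it. Xirp2 was at -0.55 with and -0.22 without it. Csrp3 differed by -0.87 ± 0.38 with it and -1.03 without it, with levels from 25.2 TPM, and a median of 68.4 TPM, to 126 TPM in cachectic mice and 91.1 to 157 TPM in control mice. Ankrd1 differed by 0.52 ± 0.39, and Hspb8 by -0.28 ± 0.22.

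Across the 62 mice Ky and Ankrd2 levels were inversely related on the log2 scale, with a Pearson r of -0.62, and of -0.78 over the 58 mice without the 4 libraries. Over deviations from the condition means the r was -0.31. These points share conditions and the mitochondrial share of their libraries, and the r is a description. The ratio of Ankrd2 to Ky TPM summarises the pair: at 6 weeks it was 17.3 to 79.9 in cachectic mice, 1.58 to 8.41 in control mice and 1.13 to 5.01 in non-cachectic mice. At 8 weeks it ran from 21.9 to 802 in cachectic and from 1.59 to 5.00 in control mice, and 1 non-cachectic mouse reached 22.6. The ratio combines values already given and adds no test.

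With the 4 libraries left out, the r of Ky was -0.64 with Nrap and -0.60 with Flnc, against 0.11 and 0.06 over all 62 mice, and 0.41 with Xirp2. Over deviations from the condition means of the same 58 mice, r was -0.012 with Nrap, -0.081 with Flnc, 0.48 with Xirp2 and -0.47 with Ankrd2. The genes most like Ky over the 62 mice, by Pearson r of log2 levels among 13577 genes, were Taco1 (0.92), a translation activator of cytochrome c oxidase, Tmem25 (0.91), Myoz3 (0.90), Oxnad1 (0.90) and Fam78a (0.90). Within conditions their r with Ky was 0.83 to 0.86. Over the 55 mice without the cachectic mice at 8 weeks, which chose Ky, it was 0.81 to 0.86. Myoz3, a calsarcin of fast fibers at the Z-disc, averaged 28.0 TPM in cachectic and 57.1 TPM in control mice at 6 weeks, and was not called by limma. It was chosen for its likeness to Ky, so its lower level beside that of Ky is not a separate result.

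Other genes of the same structures are given from lists of related genes, members left out. Of 25 genes of filamin C repair and chaperone-assisted autophagy, 2 rose and 0 fell between cachectic and control mice at 6 weeks, near the 6.79% of all genes called. They were Map1lc3b, an autophagosome membrane protein (0.76 ± 0.19, limma adjusted p = 0.00789), and Myoz1, a calsarcin that binds filamin C (0.64 ± 0.17, 0.0132). Map1lc3b was also higher than in non-cachectic mice (0.77 ± 0.19, 0.00769). The list's median was 0.10, beside 0.17 over all genes.

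Of 27 structural Z-disc genes, Myoz1 again among them, 4 rose and 1 fell against control, beside 6.79% of all genes called. Against non-cachectic mice 2 rose and 0 fell, beside 5.85%. Des, the intermediate filament that links Z-discs, averaged 2899 TPM in cachectic and 1261 TPM in control mice (1.19 ± 0.37, limma adjusted p = 0.0385), and Myoz2, a calsarcin of slow fibers, 531 and 297 TPM (0.86 ± 0.19, 0.00211). Fhl2, a LIM protein that shuttles between Z-disc and nucleus, averaged 10.1 and 25.6 TPM (-1.14 ± 0.30, 0.0117). It was 1 lower and 0 higher of 16 genes in the list of titin N2A and stretch signalling, where 3 were lower with median-ratio scaling and with quantile normalization, 2 without mitochondrially encoded genes, and 3 higher and 3 lower without the 4 libraries. Des, Myoz2 and Fhl2 held their calls against control under all 3 other scalings, but Myoz1 did not pass with median-ratio scaling (0.0686).

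Of 26 genes of load and of SRF or YAP targets, 2 rose and 2 fell against control, beside 6.79% of all genes called. Fhl2, the fall of the structural Z-disc and titin N2A lists, was 1 of the 2 that fell. Against non-cachectic mice 1 rose and 1 fell, beside 5.85%. Under the 3 other scalings 1 was higher and 2 or 3 lower against control. Actc1, cardiac actin, averaged 1.11 TPM in cachectic and 9.63 TPM in control mice (-2.08 ± 0.48, limma adjusted p = 0.00405). Junb, an immediate early transcription factor, averaged 38.8 and 9.38 TPM (1.84 ± 0.37, 0.000935). Of 21 costamere and myotendinous junction genes 1 rose in each comparison, beside the same shares of all genes. It was Dtna, a dystrobrevin (0.62 ± 0.15 against control, limma adjusted p = 0.00608), which missed with median-ratio scaling (0.0512). At 4 weeks 0 genes of any of these 5 lists were called. With median-ratio scaling the structural Z-disc count against control was 2 higher and 4 lower, so the balance of that list depends on the scaling. Without the 4 libraries the counts higher and lower were 6 and 2 for filamin C repair, 6 and 4 for the structural Z-disc, 6 and 3 for load and 7 and 2 for the costamere, in the fit that called 31.2% of all genes.

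Of 10 myofiber markers 10 were detected, summing to 39862 to 96863 TPM. At 6 weeks this sum was 68078 to 93042 TPM in cachectic and 58283 to 73712 TPM in control mice, and 3 of the 10 were called higher, beside 6.79% of all genes. With median-ratio scaling or without mitochondrially encoded genes 0 of the 10 were called, and with quantile normalization 1 was higher and 1 lower. Of 8 slow fiber markers 0 were called at 6 weeks, with sums of 3249 to 4674 TPM in cachectic and 3289 to 6679 TPM in control mice. Under each of the 3 other scalings 1 of the 8 was lower against control, beside 6.17% to 9.27% of all genes called. Without the 4 libraries 1 was lower against control and 1 higher against non-cachectic mice, beside 31.2% and 27.2% of all genes. Cardiomyocyte markers, which bear on Ankrd1, Csrp3 and Nrap, were low (36.1 to 222 TPM in sum over all mice), and 0 of 7 tested were called. Of 8 tested markers of regenerating or denervated fibers 1 was higher in cachectic than in control mice at 6 weeks (sums of 50.4 to 80.1 and 42.2 to 98.6 TPM).

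Markers of other cells moved as follows between cachectic and control mice at 6 weeks. Beside 6.79% of all genes called, of 8 macrophage markers 3 were higher (sums of 287 to 623 and 276 to 782 TPM, and 2 under each of the 3 other scalings), of 8 fibroblast markers 1 (1010 to 1473 and 848 to 1224 TPM, and 0 with median-ratio scaling), and of 7 smooth muscle markers, Des among them, 1 (2654 to 3838 and 1312 to 1550 TPM, with 1 also lower under median-ratio scaling and quantile normalization). The 1 smooth muscle marker called higher was Des, also in the structural Z-disc list. Des averaged 2899 TPM in cachectic and 1261 TPM in control mice, which is most of the smooth muscle sum. None was called of 10 hepatocyte, 8 adipocyte, 6 mesothelium and 4 tested neutrophil markers. Summed adipocyte markers did not overlap, at 2451 to 3758 TPM in cachectic and 1935 to 2412 TPM in control mice. Summed neutrophil markers did not overlap either, at 17.0 to 31.9 and 4.12 to 13.2 TPM. Of all genes, 18.9% did not overlap between these groups. In non-cachectic mice at 6 weeks the sums were 1804 to 2494 and 2.49 to 18.6 TPM, so both overlapped the cachectic mice. Relative to non-cachectic mice the median log2 change was -0.28 for adipocyte and 0.88 for tested neutrophil markers, beside 0.14 over all genes. Mesothelium markers summed to 91.2 to 243 TPM in cachectic and 84.0 to 236 TPM in control mice. Hepatocyte markers summed to 15.6 to 5354 TPM in cachectic mice and 15.2 to 408 TPM in control mice. With the hepatocyte markers as a covariate Ankrd2 changed by 1.76 (limma, adjusted p = 0.0132) and Ky by -1.34 (0.0913) against control. The part of the other cell types in these results was not tested. In whole diaphragm, fewer cells of a type and less RNA per cell cannot be told apart.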

How the data were processed

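Diaphragm RNA was extracted with Trizol and sequenced as poly(A) libraries. The authors trimmed the reads, aligned them to GRCm38/mm10 in CLC Genomics Workbench and deposited gene levels as TPM. The annotation release, use of strand and treatment of reads matching several genes were not given in the sources used here. TPM keeps no depth, and a change in a few abundant genes shifts all others.

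From the TPM, log2(TPM + 1) was fitted with limma 3.58.1 (R 4.3.3), with 1 mean for each of the 12 conditions and a variance trend, over the 13578 genes at 1 TPM or more in 5 or more of the 62 mice. P-values were adjusted by Benjamini-Hochberg over all genes tested, and a call is an adjusted p under 0.05. Fold changes on this scale understate changes of low genes. The study itself used Kruskal-Wallis and Dunn tests, of which the Dunn test was run here in R on the members as an alternative. Another was an exact permutation test of the difference in mean log2 level (SciPy 1.17.1). The fit was tried on simulated data, with independent noise of the same spread for a gene in every library. Those data held no libraries like the 4 that stood apart, so they cannot show how the fit handles such libraries. Other scalings, filters, pseudocounts, a replicate block, array weights, a hepatocyte covariate and omitted mice were also tried.

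The members, lists and tests were chosen with earlier results of these data known. Named genes were the members, up to 3 called genes with the largest fold change in each list at 6 weeks, and the 5 genes most correlated with Ky. Replicates are separate mice, and no 2 libraries held identical values.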

Additional observations from a re-analysis of the deposited data

Results flagged for a closer look

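In each group of 5 or 7 mice, the highest or lowest value of each of the 9 tested genes was compared with its neighbour by Dixon's criterion, which chance meets in about 1 of 20 groups. It was met in 12 of 108 groups, 10 of them in libraries with few detected genes.

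Ky was low in cachectic replicate 1 at 6 weeks, at 9.01 TPM against 21.1 to 29.3 TPM in the other 4 mice, and in non-cachectic replicate 1 at 4 weeks, at 24.4 TPM against 47.7 to 60.0 TPM.

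Cachectic replicate 3 at 8 weeks was low in 6 genes. Flnc was at 27.7 TPM against 239 to 582 TPM in the other 6 mice, and Xirp1 at 4.13 TPM against 60.1 to 174 TPM. Xirp2 was at 69.1 TPM against 293 to 380 TPM, and Ankrd2 at 116 TPM against 519 to 1333 TPM. Nrap was at 74.9 TPM against 720 to 1313 TPM, and Hspb8 at 63.3 TPM against 176 to 296 TPM.

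Non-cachectic replicate 5 at 2 weeks was low in 4 genes. Flnc was at 52.4 TPM against 162 to 247 TPM in the other 4 mice, Xirp2 at 123 TPM against 369 to 445 TPM, Nrap at 200.2 TPM against 580 to 772 TPM and Hspb8 at 121 TPM against 216 to 267 TPM. The cause was not tested.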

How the results depend on the processing

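The number of members called between cachectic and control mice at 6 weeks, 1 as reported, was 2 with median-ratio scaling, quantile normalization, without mitochondrially encoded genes, without the 4 libraries with the fewest genes, with only the conditions compared, and by Dunn and exact permutation tests at an unadjusted p under 0.05, with Ky added. It was 3 with array quality weights, a fit that called 48.4% of all genes. The fit of only the conditions compared called 29.7% of all genes, and the fit without the 4 libraries 31.2%. Dunn and permutation tests were run on the members only. Against non-cachectic mice the 2 became 1 with a pseudocount of 0.1 or no filter (Ky lost, adjusted p = 0.0600 and 0.0611), 5 with array weights and 4 by Dunn test. Nrap passed as well by exact permutation test (unadjusted p = 0.00794) and without the 4 libraries, in a fit that called 27.2% of all genes. At 4 weeks the 0 members against control became 2 with array weights, 2 by Dunn test and 1 by permutation, and the 0 against non-cachectic mice 1 by Dunn test and 2 by permutation. At 2 weeks the 1 member against control became 0 with no filter, median-ratio scaling, array weights, without the 4 libraries, with only the conditions compared, and by Dunn and permutation tests. The 0 members became 2 by Dunn test against non-cachectic mice, and 1 by permutation between non-cachectic and control mice. From 4 to 6 weeks in cachectic mice the 0 became 4 with array weights and 3 by permutation, and in the tests of the difference 4 relative to control and 2 relative to non-cachectic mice with array weights. Array weights called 40.6% of all genes against non-cachectic mice at 6 weeks and 7.87% against control at 4 weeks. They called 25.9% from 4 to 6 weeks in cachectic mice, and 16.2% and 4.82% in the tests of the difference. The cause was not tested.

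Leaving out 1 mouse at a time, the members called at 6 weeks ranged from 0 to 1 against control and from 0 to 2 against non-cachectic mice, and at 2 weeks from 0 to 3 and from 0 to 1. Reversed directions concerned small changes. With median-ratio scaling, quantile normalization and without mitochondrial genes, Xirp1 against control was -0.16, -0.14 and -0.13, Hspb8 was -0.18, -0.17 and -0.16, and Xirp1 against non-cachectic mice was -0.10 in each. With array weights Ankrd1 against non-cachectic mice was 0.14, and at 4 weeks Ankrd2 was -0.36 relative to control, and relative to non-cachectic mice Ankrd2 was -0.25 and Ky 0.23. Over omitted mice at 6 weeks, Xirp1 ran from -0.082 to 0.18 and Hspb8 from -0.067 to 0.094 against control, and Xirp1 from -0.13 to 0.24, Ankrd1 from -0.37 to 0.17 and Hspb8 from -0.12 to 0.026 against non-cachectic mice. At 4 weeks Ankrd2 ran from -0.10 to 0.54 against control, and Ky from -0.47 to 0.12 and Ankrd2 from -0.022 to 0.55 against non-cachectic mice.

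The share of called genes that were higher in cachectic than in control mice at 6 weeks was 82.8% as reported and 46.1%, 42.1% and 45.6% under the 3 other scalings. Correlations between the deviations of same-numbered mice ran from -0.633 to 0.387. They were over 0.1 in 4 of 5 pairs of cachectic and control mice at 8 weeks. Between non-cachectic and control mice at 6 weeks 0 of 5 were. The mice were treated as unpaired, but these correlations cannot show that the numbers pair none of them. With the replicate block Ky was -1.36 (limma, adjusted p = 0.0651) against control and -1.58 (0.0298) against non-cachectic mice, Ankrd2 1.75 (0.0123) and 1.78 (0.0121), and no call of a member changed.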
